A study of Mus musculus with 12 samples.

Results

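Aquaporins, the membrane channels that let water and, for some members, small solutes such as glycerol cross cell membranes, were followed at the transcript level in the mouse intestinal epithelium. The list holds 6 genes, Aqp1, Aqp3, Aqp4, Aqp7, Aqp8 and Aqp11, chosen by name from the 55487 genes in the count tables, and all 6 had counts. RNA sequencing covered 12 libraries from C57BL/6 mice of either sex, all young adults, divided evenly into 4 groups of 3. The groups named SI tissue and LI tissue were crypts taken straight from the small or the large intestine of 1 mouse per library, which the labels call in vivo tissue. SI monolayers and LI monolayers were crypts plated on Matrigel, fed a medium with Wnt3a, EGF, Noggin and R-spondin and harvested after 24 h, with several wells pooled per library and no drug added. By the study's methods the LI crypts for culture were taken from the mice that gave the SI crypts, so SI and LI monolayers share mice, although which libraries share one is not stated. No group carried a transgene or a deleted gene. The crypts seeded for SI monolayers came from the jejunum, were released with EDTA and were strained to remove villi, whereas LI crypts were freed with collagenase, dispase and DNase before EDTA. Gut region and isolation method therefore cannot be told apart, nor can plating, medium and time in culture.

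Water follows salt across the gut wall, and epithelial cells can let it pass between them or through channels in their apical and basolateral membranes. Aqp1, Aqp4 and Aqp8 are known mainly as water channels, and Aqp8 also passes ammonia and hydrogen peroxide. Aqp3 and Aqp7 are aquaglyceroporins, which carry glycerol as well as water, and Aqp11 is an unorthodox family member found mostly on intracellular membranes.

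Total counts ranged from 59016196 to 76216530 per library, at which 3 counts correspond to 0.0394 to 0.0508 CPM (counts scaled to a common library size). No pair of replicates agreed within sampling noise (chi-square of 5.16 to 186.3 per degree of freedom), which repeat preparations of 1 sample could also give, and the 12 libraries were taken as separate samples because the labels list them so. Mitochondrial genes took 4.56% to 9.16% of counts in SI tissue, 2.25% to 2.59% in LI tissue and 0.472% to 0.750% in monolayers. The labelled regions were checked with 2 lists of genes. The small intestinal list (Gata4, Gata5, Onecut2, Tmprss15, Ccl25 and Rbp2) summed to between 696.2 and 3502 CPM in the SI libraries and to between 14.3 and 35.4 CPM in the LI libraries. The 5 hindgut homeobox genes of the large intestinal list (Hoxb13 and Hoxd10 to Hoxd13) summed to between 60.55 and 517.9 CPM in the LI libraries and to between 0.320 and 1.38 CPM in the SI libraries.

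The sequence just upstream of 3 aquaporins is shown because these genes differed most by region: Aqp3 and Aqp7 were far higher in SI tissue and Aqp8 far higher in LI tissue. Each run is the 250 bases before a RefSeq transcript start (mouse build GRCm38.p6), read 5′ to 3′ on the strand of the gene. Capitals mark the motifs that were found among 7 searched on both strands: TATAAA (the TATA box), GGGCGG (the GC box, in Aqp3 found on the other strand), TTTAT (a core of CDX sites), AGATAA (a form of the GATA site), CAAAGTCCA (a form of the HNF4 site), CTTTGAT (a form of the TCF/LEF site) and GTTAAT (a part of the HNF1 site).
Aqp3, chr4:41098184-41098433, minus strand: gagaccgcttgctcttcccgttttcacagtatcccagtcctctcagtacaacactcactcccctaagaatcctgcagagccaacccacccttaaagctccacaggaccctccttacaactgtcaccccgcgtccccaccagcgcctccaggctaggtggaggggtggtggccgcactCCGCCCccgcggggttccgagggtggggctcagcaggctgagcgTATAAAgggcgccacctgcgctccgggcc
Aqp7, chr4:41048137-41048386, minus strand: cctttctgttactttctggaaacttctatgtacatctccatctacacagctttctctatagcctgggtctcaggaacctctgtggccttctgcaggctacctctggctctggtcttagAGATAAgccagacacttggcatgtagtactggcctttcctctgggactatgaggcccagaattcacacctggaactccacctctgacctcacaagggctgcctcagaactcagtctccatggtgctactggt
Aqp8, chr7:123462044-123462293, plus strand: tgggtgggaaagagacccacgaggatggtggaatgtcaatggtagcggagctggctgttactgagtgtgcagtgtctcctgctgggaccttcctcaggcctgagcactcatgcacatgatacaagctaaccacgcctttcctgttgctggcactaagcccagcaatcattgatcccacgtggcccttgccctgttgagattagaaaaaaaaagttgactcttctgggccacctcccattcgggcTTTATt

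Aqp3 had a TATA box whose first base lay 29 bases before the start, and the same letters hold a CDX core read on the other strand. A TATA box of these letters stood in 12.4% of 32851 windows of the same length, a GC box in 32.7% and a CDX core in 37.3%. Aqp7 had an AGATAA site 132 bases before this start, a motif found in 9.99% of windows, and none of the 7 motifs before its second RefSeq start. Aqp8 had only a CDX core, 6 bases before the start, and its GC content of 52.4% equalled the median of all windows. Aqp11 had none of the motifs but the highest GC content of the 5 aquaporins read, 67.2% with 23 CG pairs against a median of 6, while Aqp1 had a GC box 190 bases before its start. The HNF4, TCF/LEF and HNF1 letters were in none of these 6 windows, and were in 0.384%, 3.21% and 6.43% of all windows. These matches describe letters in a window and are not evidence of binding.

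Different aquaporin transcripts dominated in the 2 gut regions. To compare genes with one another, the normalized counts (the authors' counts divided by 1 size factor per library) were divided by exon length in kb. On this scale Aqp1 made up 72.1% ± 2.33 (SD, n = 3) of the summed level of the 6 genes in SI tissue, and Aqp8 made up 78.1% ± 2.44 (SD, n = 3) in LI tissue. Aqp4 was the second aquaporin of LI tissue, at 17.4% ± 2.33 (SD, n = 3), and Aqp11 the second of SI tissue, at 8.92% ± 0.798 (SD, n = 3).

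In SI monolayers Aqp1 still led, at 59.1% ± 3.58 (SD, n = 3), followed by Aqp11 at 22.0% ± 1.24 (SD, n = 3). LI monolayers were almost wholly Aqp8, at 98.4% ± 0.284 (SD, n = 3), and Aqp4 was down to 0.165% ± 0.0170 (SD, n = 3). The summed level per kb was 6249 ± 1044 (SD, n = 3) in SI tissue and 1282 ± 64.2 (SD, n = 3) in SI monolayers. In the large intestine it was 39091 ± 5461 (SD, n = 3) in tissue and 12361 ± 351.4 (SD, n = 3) in monolayers, so that the monolayer libraries were below the tissue libraries in both regions. Among 19566 genes with a length, Aqp8 ranked 113 by level per kb in LI tissue and 285 in LI monolayers, Aqp4 ranked 604 in LI tissue, and Aqp1 ranked 892 in SI tissue. In SI tissue Aqp3 and Aqp7 were neighbours at 428.6 ± 194.3 and 419.1 ± 49.1 normalized counts per kb (SD, n = 3), which did not differ beyond their spread.

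**Figure D1:**
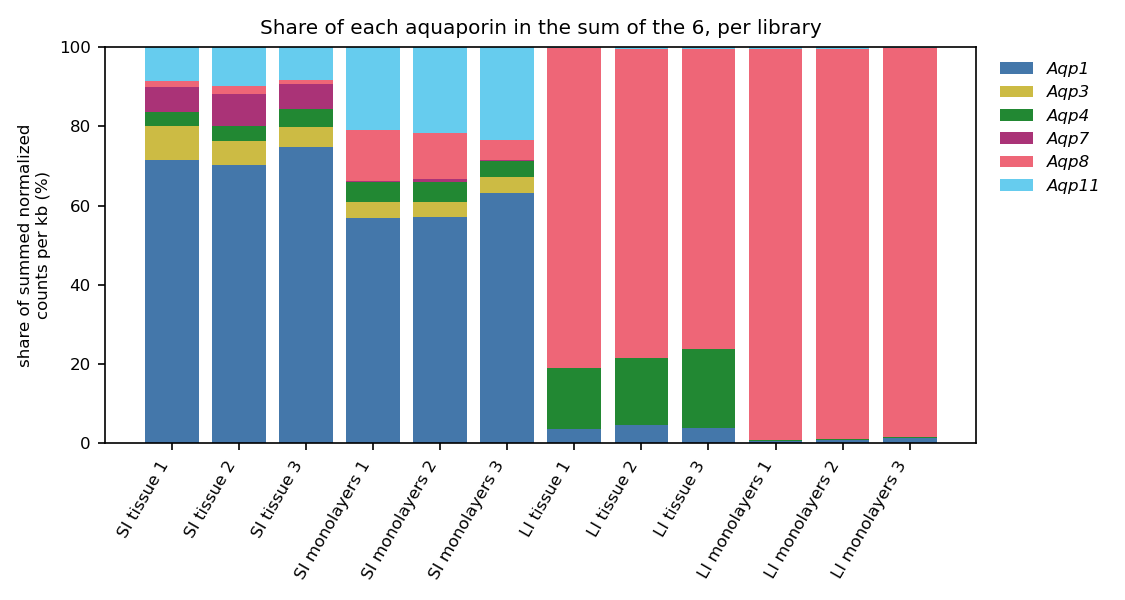
Share of each of the 6 aquaporins (vertical axis, percent) in their summed normalized counts per kb of exon, with 1 stacked bar for each of the 12 libraries. Aqp1 takes 56.9% to 74.7% of every SI bar and Aqp8 takes 75.7% to 98.7% of every LI bar, while the Aqp4 segment of 15.4% to 19.9% in LI tissue is 0.148% to 0.182% in LI monolayers.

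A gene was called changed with an adjusted p under 0.05 (edgeR's quasi-likelihood test, Benjamini-Hochberg over all 19581 tested genes) and a log2 fold change of at least 1 in size. All 6 aquaporins passed the filter on low counts, Aqp7 only because of its SI counts. In the small intestine, 4 of 6 aquaporins (Aqp1, Aqp3, Aqp4 and Aqp7) were called lower in monolayers than in tissue and none higher, where 26.1% of all tested genes were called, 16.4% lower and 9.71% higher. In the large intestine, 4 of 6 (Aqp1, Aqp4, Aqp8 and Aqp11) were called lower in monolayers and none higher, where 38% of tested genes were called, 23.5% lower and 14.5% higher. In bulk RNA, fewer cells of a type and less RNA per cell cannot be told apart.

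Between regions every aquaporin was called, but Aqp7 entered the test only through its SI counts, so SI libraries had to stand above LI libraries for it. In tissue, 4 of 6 (Aqp1, Aqp3, Aqp7 and Aqp11) were higher in SI and 2 of 6 (Aqp4 and Aqp8) were higher in LI, where 22.7% of tested genes were called, 11.6% higher in SI and 11.1% lower. In monolayers, 5 of 6 were higher in SI and only Aqp8 was higher in LI, where 21.2% of tested genes were called, 12.4% higher in SI and 8.88% lower. The member that changed sides was Aqp4. The change in culture itself differed between regions (the interaction, SI change minus LI change) for 5 of 6 aquaporins, 3 positive (Aqp1, Aqp4 and Aqp8) and 2 negative (Aqp3 and Aqp7), where 20% of tested genes were called, 11.4% positive and 8.51% negative. The call of Aqp7 was lost without LI monolayer replicate 3 (-5.34, adjusted p = 0.121 by edgeR), and its value ran from -10.5 to -5.34 when any 1 library was left out. These comparisons share groups, so their values are not independent of one another. The libraries of the groups did not overlap for 5, 4, 6 and 6 of the 6 aquaporins in these comparisons, in the order given, but such gaps were common, at 66.4%, 73.1%, 58.8% and 62.3% of all tested genes. The median log2 fold change of all tested genes lay between -0.05 and 0.06.

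**Figure D2:**
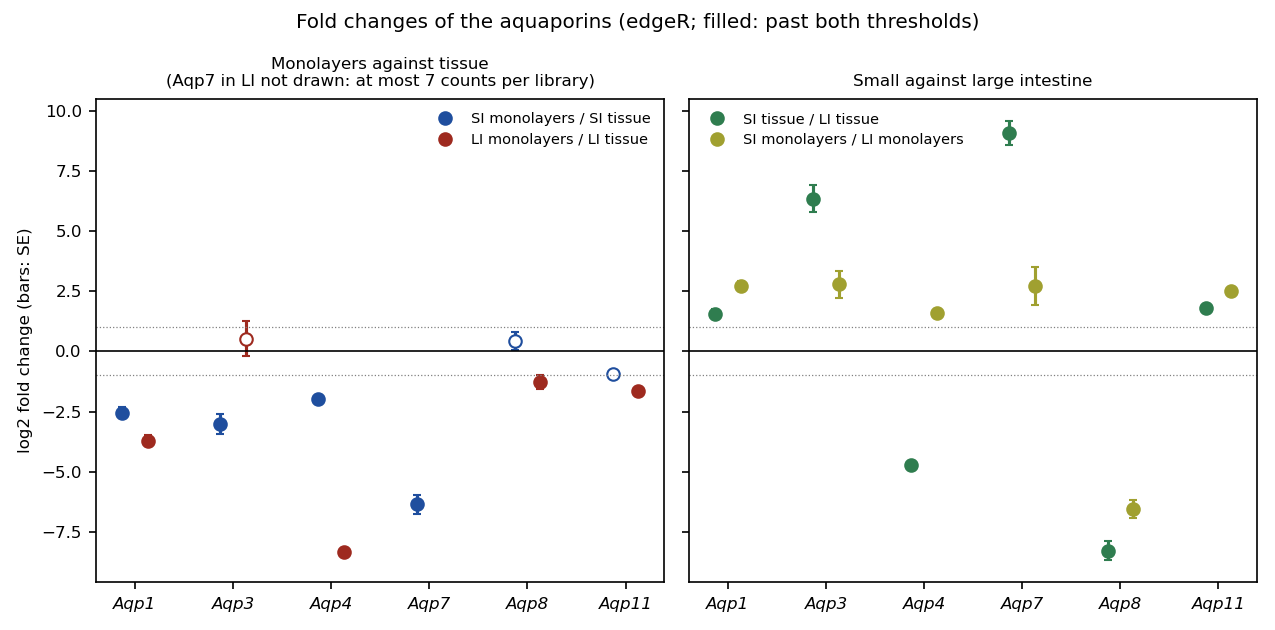
Log2 fold changes of the aquaporins from edgeR (vertical axis, log2 scale), with monolayers against tissue on the left and SI against LI on the right. Points are estimates, bars are 1 SE, filled points passed both thresholds, and dotted lines mark log2 fold changes of -1 and 1. Aqp4 in LI monolayers against LI tissue is the lowest point, at -8.32, and Aqp7 in SI tissue against LI tissue the highest, at 9.07.

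Aqp1, the water channel long known from red blood cells, capillary endothelium and kidney tubules, was the leading aquaporin of the small intestine per kb of exon and fell in culture in both regions. Without division by length, Aqp11 lay above it in all 3 SI monolayer libraries, at 2610.0 to 2685 normalized counts against 1920.1 to 2024. It lies on chromosome 6 (GRCm38, chr6:55336432-55348555, plus strand, ENSMUSG00000004655.5). In SI tissue its normalized counts were 13958, 10162.5 and 11380.2 (mean 11834 ± 1938, SD, n = 3), and in SI monolayers 2013, 1920.1 and 2024 (mean 1986 ± 57.1, SD, n = 3). In LI tissue they were 4350.0, 4581 and 3543 (mean 4158 ± 545.0, SD, n = 3), and in LI monolayers 209.9, 297.3 and 416.0 (mean 307.7 ± 103.5, SD, n = 3). The 4 groups did not overlap at any point, in the order SI tissue, LI tissue, SI monolayers and LI monolayers. The SI monolayer level was 5.82-fold below SI tissue (log2 fold change -2.54, SE 0.21, adjusted p = 3.28e-06 by edgeR). The LI monolayer level was 13.1-fold below LI tissue (log2 fold change -3.71, SE 0.23, adjusted p = 2.59e-07 by edgeR). The region difference was thus smaller in tissue, at 2.93-fold in favour of SI (adjusted p = 0.000111 by edgeR), than in monolayers, at 6.59-fold (adjusted p = 5.11e-06 by edgeR), and the interaction was called at 1.17 on the log2 scale (SE 0.29, adjusted p = 0.00924 by edgeR).

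Because Aqp1 also marks vessels and red cells, lists for these cells were read beside it. The 12 endothelial markers summed to between 16.8 and 18.9 CPM in SI tissue, where Aqp1 alone was at 150.3 to 207.4 CPM. In SI monolayers they summed to between 9.54 and 12.2 CPM with Cdh5 and Emcn at 0 in all 3 libraries, and Aqp1 was at 29.3 to 30.9 CPM. Aqp1 therefore exceeded the summed endothelial list in every SI library. The sum hides unlike genes: Lyve1, the most abundant of the list, had means of 284.6 normalized counts in SI tissue and 295.1 in SI monolayers. Plvap went from 62.1 to 5.98 and Vwf from 114.0 to 16.8, whereas Tie1 went from 14.2 to 59.6. Of 10 endothelial genes tested, 6 were lower and 1 higher in SI monolayers, where 16.4% of all tested genes were lower and 9.71% higher. In LI monolayers 3 were lower and 3 higher, beside 23.5% and 14.5% of all tested genes. LI libraries held endothelial sums of 11.98 to 12.8 CPM in tissue against 51.7 to 66.3 CPM for Aqp1, and of 7.79 to 9.66 CPM in monolayers against 3.16 to 6.19 CPM for Aqp1, so that only in LI monolayers was Aqp1 below the list in every library. The 7 matched erythroid markers summed to between 13.8 and 19.2 CPM in SI tissue and to between 67.2 and 73.7 CPM in LI tissue, opposite in order to Aqp1, and fell to between 0.167 and 2.13 CPM in monolayers, with 5 of 6 tested genes lower in SI and 6 of 6 in LI. The part of endothelial and red cells in the fall of Aqp1 was not tested.

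Aqp4, the water channel best known from astrocytes and also found on the basolateral side of colonic surface cells, showed the deepest loss of any aquaporin in culture. It lies on chromosome 18 (GRCm38, chr18:15389496-15410982, minus strand, ENSMUSG00000024411.11), overlapping a gene on the other strand, AC133525.2, with which it shares no exon base. In LI tissue its normalized counts were 43331, 38936 and 43149 (mean 41805 ± 2486, SD, n = 3), and in LI monolayers 113.6, 144.6 and 123.5 (mean 127.2 ± 15.8, SD, n = 3). Small intestinal levels were 1649, 1319 and 1611 in tissue (mean 1526 ± 180.8, SD, n = 3) and 422.3, 407.7 and 299.1 in monolayers (mean 376.4 ± 67.3, SD, n = 3). LI tissue was thus the highest group and LI monolayers the lowest, with both SI groups between them and no overlap among the 4.

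The LI monolayer level of Aqp4 was 319.3-fold below LI tissue (log2 fold change -8.32, SE 0.17, adjusted p = 5.12e-13 by edgeR), the 8th lowest log2 fold change among 2046 genes with at least 100 CPM in LI tissue. In SI the same comparison gave a 3.96-fold fall (log2 fold change -1.99, SE 0.13, adjusted p = 5.24e-08 by edgeR). Aqp4 accordingly changed places between regions. SI tissue was 26.6-fold below LI tissue (log2 fold change -4.73, SE 0.13, adjusted p = 4.19e-11 by edgeR), whereas SI monolayers were 3.03-fold above LI monolayers (log2 fold change 1.60, SE 0.15, adjusted p = 2.29e-06 by edgeR). The interaction was 6.33 on the log2 scale (SE 0.2, adjusted p = 2.87e-10 by edgeR).

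Enteric glia share markers with astrocytes, so a list of them was read beside Aqp4, and it did not follow Aqp4. Leaving out Erbb3, which epithelial cells also express and which held most of the sum, the glial list summed to between 10.04 and 18.7 CPM in LI tissue, where Aqp4 was at 563.4 to 630.1 CPM, and to between 17.7 and 19.4 CPM in LI monolayers, where Aqp4 was at 1.71 to 2.15 CPM. Of 6 glial genes tested, none was lower in LI monolayers and 1 (Sox10) was higher. Markers of mature large intestinal absorptive cells did fall with Aqp4: the 8 genes summed to between 5087 and 7565 CPM in LI tissue and to between 551.8 and 564.4 CPM in LI monolayers, with all 8 called lower and a median log2 fold change of -4.70. The 8 goblet markers also fell, from between 17125 and 21636 CPM to between 1634 and 1818 CPM, with all 8 called lower. Other lists were read in the same groups. The 10 immune markers summed to between 38.8 and 42.7 CPM in LI tissue and to between 3.34 and 3.94 CPM in LI monolayers. Of 10 stem and proliferation genes, 3 were called lower and 1 higher in LI monolayers, beside 23.5% and 14.5% of all tested genes. The stem cell genes Lgr5, Ascl2 and Smoc2 had means of 289.3, 577.9 and 2792 normalized counts in LI tissue and of 25.8, 7.88 and 131.1 in LI monolayers. Olfm4, another stem cell gene of the list, had means of 2.23 CPM in LI tissue and 2.25 CPM in LI monolayers. The whole list summed to more in LI monolayers (854.5 to 922.5 CPM) than in LI tissue (638.4 to 695.7 CPM). The part of a changed cell makeup in the fall of Aqp4 was not tested.

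Aqp8, a channel for water, ammonia and hydrogen peroxide known from the colon surface, liver and pancreas, was the large intestinal aquaporin in both preparations. It lies on chromosome 7 (GRCm38, chr7:123462291-123468004, plus strand, ENSMUSG00000030762.11). Its normalized counts in LI tissue were 57637, 46031 and 41618 (mean 48428 ± 8274, SD, n = 3), and in LI monolayers 19203, 19818 and 18676 (mean 19232 ± 571.5, SD, n = 3). SI tissue held 178.8, 184.5 and 97.8 (mean 153.7 ± 48.5, SD, n = 3), and SI monolayers 271.6, 236.8 and 96.7 (mean 201.7 ± 92.6, SD, n = 3). The LI libraries all stood far above the SI libraries, and the 2 SI groups overlapped.

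LI monolayers kept 39.7% of the LI tissue level of Aqp8, a 2.44-fold fall (log2 fold change -1.28, SE 0.29, adjusted p = 0.00367 by edgeR), against the 0.304% left of Aqp4. SI monolayers and SI tissue did not pass the test (log2 fold change 0.43, SE 0.38, adjusted p = 0.358 by edgeR). The region difference was 308.1-fold in tissue (log2 fold change -8.27, SE 0.41, adjusted p = 2.22e-07 by edgeR), the 5th lowest among 2535 genes with at least 100 CPM in either tissue group. In monolayers it was 93.6-fold (log2 fold change -6.55, SE 0.38, adjusted p = 7.15e-07 by edgeR), the 2nd lowest among 2589 such genes. The interaction was called at 1.72 (log2 scale, SE 0.48, adjusted p = 0.0167 by edgeR).

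The genes most like Aqp8 over the 12 libraries on log2(normalized count + 1) were Thbs4 (Pearson r = 0.997), an extracellular matrix thrombospondin, Hoxd13 (r = 0.995), a homeobox gene of the hindgut, and Slc6a14 (r = 0.995), an amino acid transporter. All 3, like Aqp8, were far lower in SI than in LI. In SI tissue Aqp8 stood at 0.317% of its LI tissue mean, Thbs4 at 0.326%, Hoxd13 at 0.314% and Slc6a14 at 0.331%. Of the 2046 genes with at least 100 CPM in LI tissue, the lowest stood at 0.136% and the 10th lowest at 0.331%. In SI monolayers Aqp8 was lowest in the library that also held the least of the 5 hindgut homeobox genes: 1.48 CPM of Aqp8 beside 0.320 CPM of those genes, against 4.12 and 3.61 CPM of Aqp8 beside 1.035 and 1.38 CPM. Whether traces of LI RNA reached the SI libraries was not tested.

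**Figure D3:**
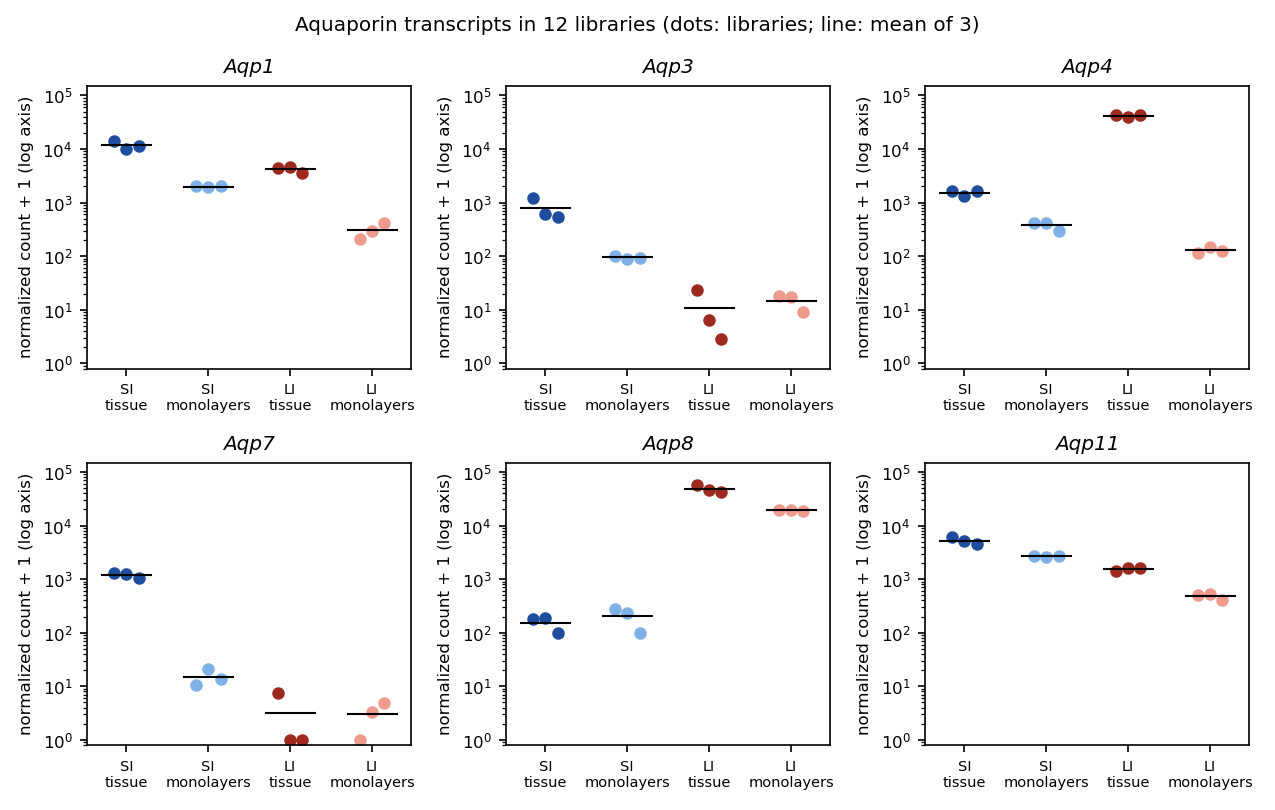
Normalized counts plus 1 (vertical axis, log scale) of each of the 6 aquaporins in the 12 libraries, with dots for libraries and a line at the mean of 3. Aqp4 runs from 41805 in LI tissue down to 127.2 in LI monolayers, Aqp8 lies between 18676 and 57637 in the LI libraries and between 96.7 and 271.6 in the SI libraries, and Aqp7 reaches 1028 to 1293 in SI tissue and at most 19.6 elsewhere.

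Aqp3, an aquaglyceroporin of the basolateral membrane in many epithelia, was an SI tissue transcript in these libraries. It lies on chromosome 4 (GRCm38, chr4:41092722-41098183, minus strand, ENSMUSG00000028435.8). Normalized counts were 1193, 610.9 and 548.4 in SI tissue (mean 784.0 ± 355.3, SD, n = 3) and 101.7, 89.0 and 91.2 in SI monolayers (mean 94.0 ± 6.81, SD, n = 3). LI tissue held 22.6, 5.49 and 1.79 (mean 9.94 ± 11.1, SD, n = 3) and LI monolayers 17.3, 16.1 and 7.91 (mean 13.8 ± 5.12, SD, n = 3). Every SI tissue library was above every SI monolayer library, and both LI groups lay below all SI libraries and overlapped with each other.

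The SI monolayer level of Aqp3 was 8.13-fold below SI tissue (log2 fold change -3.02, SE 0.43, adjusted p = 9.69e-05 by edgeR). SI tissue replicate 1, 2.18 times the lowest SI tissue library, also had the highest sum of small intestinal absorptive markers, 20594 CPM against 12876 and 18398 CPM, and the highest sum of smooth muscle and fibroblast markers, 24.7 CPM against 7.39 and 8.83 CPM. Without it the fall was -2.59 on the log2 scale (SE 0.39, adjusted p = 8.8e-05 by edgeR). The region difference in tissue was 81.2-fold in favour of SI (log2 fold change 6.34, SE 0.56, adjusted p = 2.21e-06 by edgeR), and in monolayers 6.93-fold (log2 fold change 2.79, SE 0.56, adjusted p = 0.0014 by edgeR). The LI side of the tissue value rests on 24, 6 and 2 raw counts. That value ran from 5.85 to 7.74 on the log2 scale when any 1 library was left out. In LI the comparison of monolayers with tissue gave no call (log2 fold change 0.53, SE 0.74, adjusted p = 0.549 by edgeR), but without LI tissue replicate 1 it was called higher, at 1.92 (SE 0.73, adjusted p = 0.035 by edgeR), so that this library decides the call. The interaction was called at -3.55 (log2 scale, SE 0.86, adjusted p = 0.006 by edgeR).

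Aqp7, the aquaglyceroporin through which fat cells release glycerol, had the largest difference between SI tissue and LI tissue of the 6 aquaporins. It lies near Aqp3 on the same strand of chromosome 4 (GRCm38, chr4:41033074-41048139, minus strand, ENSMUSG00000028427.13). SI tissue libraries held 1293, 1234 and 1028 normalized counts (mean 1185 ± 138.8, SD, n = 3) and SI monolayers 9.60, 19.6 and 12.8 (mean 14.0 ± 5.10, SD, n = 3). In LI tissue the raw counts were 7, 0 and 0 and in LI monolayers 0, 2 and 4, at or near the floor of 3 counts, so neither a fold between these 2 groups nor the interaction that uses it can be read as a size. Only SI tissue held more than 22 raw counts of Aqp7 in any library.

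Aqp7 fell 81.5-fold from SI tissue to SI monolayers (log2 fold change -6.35, SE 0.39, adjusted p = 1.59e-08 by edgeR). SI tissue exceeded LI tissue by a fitted log2 fold change of 9.07 (SE 0.5, adjusted p = 7.06e-09 by edgeR), which rests on 3335 raw counts against 7 and ranked 18th from the highest among all 19581 tested genes. All 7 of those counts, and the highest Aqp3 value of the group, were in LI tissue replicate 1. This library also held 35.4 CPM of the small intestinal region list, against 18.2 and 18.3 CPM in the other LI tissue libraries, and whether traces of SI RNA contributed was not tested. SI monolayers, with 46 raw counts in all, exceeded LI monolayers, with 6 (log2 fold change 2.73, SE 0.79, adjusted p = 0.0113 by edgeR). Aqp7 passed the filter only through its SI counts, so SI libraries had to stand above LI libraries. The 6 adipocyte markers summed to between 30.85 and 41.01 CPM in SI tissue, above the 15.4 to 19.2 CPM of Aqp7, and nearly all of this was Cidec, a lipid droplet protein that the gut epithelium may also express, at a mean of 35.7 CPM in SI tissue and 29.7 CPM in SI monolayers. The markers other than Cidec summed to at most 0.102 CPM in SI tissue with Adipoq and Lep at 0.

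The genes closest to Aqp3 over the 12 libraries were Spns2 (Pearson r = 0.986), a sphingosine-1-phosphate exporter, and the apolipoproteins Apoc3 and Apoa4 (both r = 0.985), which are secreted on lipoproteins. Those closest to Aqp7 were Fam151a (r = 0.989), Unc93a2 (r = 0.988) and Bst1 (r = 0.984), an ectoenzyme that makes cyclic ADP-ribose. Each of these had its highest group mean in SI tissue. The 12 libraries fall into 4 groups, so a high r here says mainly that the group means follow the same order. Small intestinal absorptive markers moved with both aquaglyceroporins: the 10 genes summed to between 12876 and 20594 CPM in SI tissue and to between 4243 and 4442 CPM in SI monolayers, with 7 of 10 called lower and a median log2 fold change of -3.08. The part of fewer mature absorptive cells in the falls of Aqp3 and Aqp7 was not tested.

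**Figure D4:**
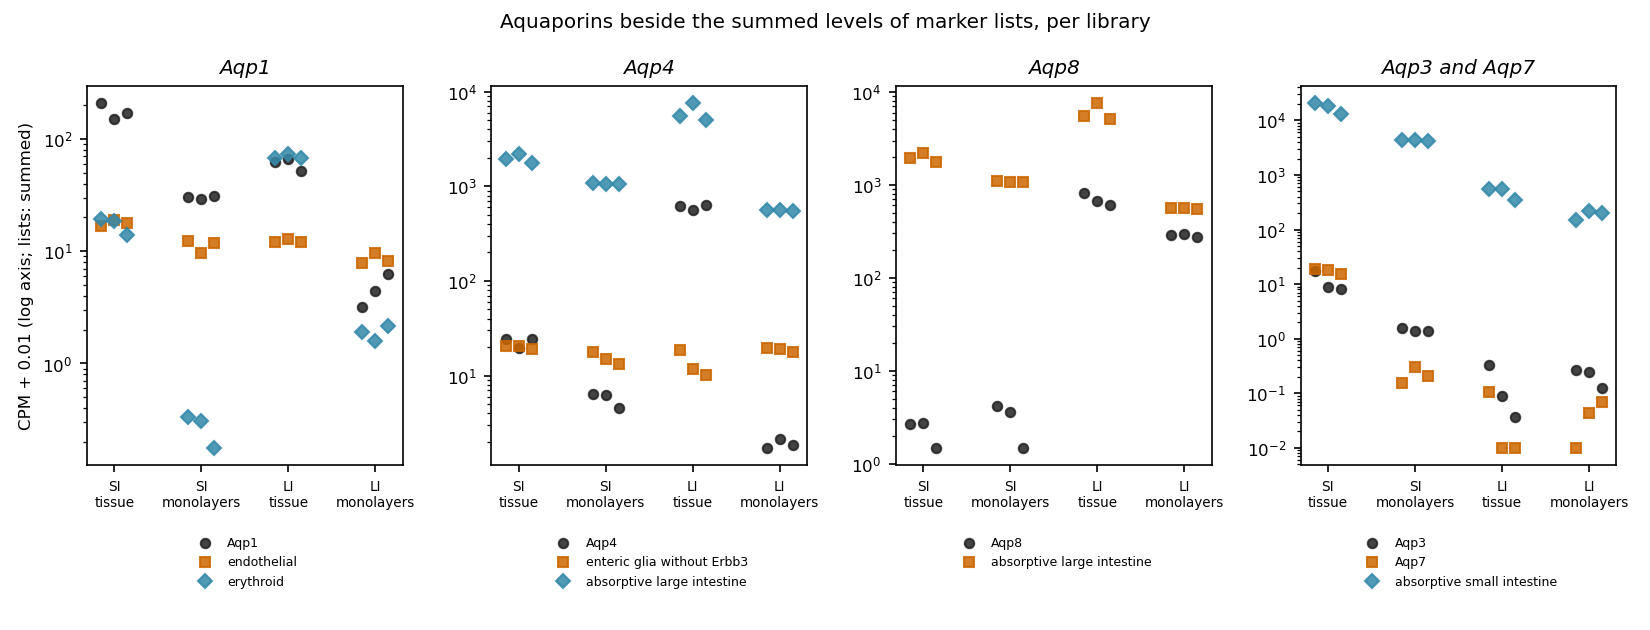
CPM plus 0.01 (vertical axes, log scale) of aquaporins and of summed marker lists, with 1 symbol per library in each of the 4 groups. Aqp1 lies above the endothelial list in all SI libraries, Aqp4 falls from at least 563.4 to at most 2.15 CPM between LI tissue and LI monolayers while the glial list without Erbb3 stays between 10.04 and 19.4 CPM, and Aqp3 and Aqp7 fall together with the small intestinal absorptive list.

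Aqp11, which sits mainly on the endoplasmic reticulum and whose loss in mice causes kidney cysts, was the most even aquaporin across the 4 groups. It lies on chromosome 7 (GRCm38, chr7:97724006-97738289, minus strand, ENSMUSG00000042797.9). SI tissue held 6050.4, 5093 and 4532 normalized counts (mean 5225 ± 767.7, SD, n = 3) and SI monolayers 2663, 2610.0 and 2685 (mean 2652 ± 38.3, SD, n = 3). LI tissue held 1408, 1622 and 1598 (mean 1543 ± 117.4, SD, n = 3) and LI monolayers 511.2, 518.8 and 403.2 (mean 477.7 ± 64.7, SD, n = 3). Both SI groups lay above both LI groups, and no neighbouring groups overlapped.

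The fall of Aqp11 in SI monolayers, 1.92-fold, passed the p threshold but not the fold threshold (log2 fold change -0.94, SE 0.1, adjusted p = 2e-06 by edgeR). In LI the fall of 3.13-fold was called (log2 fold change -1.65, SE 0.11, adjusted p = 5.71e-09 by edgeR). SI exceeded LI by 3.48-fold in tissue (log2 fold change 1.80, SE 0.11, adjusted p = 3.25e-09 by edgeR) and by 5.67-fold in monolayers (log2 fold change 2.50, SE 0.11, adjusted p = 1.91e-10 by edgeR). The interaction of 0.70 (log2 scale, SE 0.15, adjusted p = 0.00164 by edgeR) missed the fold threshold.

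Aqp11 rose and fell with Galm (Pearson r = 0.997), which interconverts the anomers of galactose, Hdhd3 (r = 0.996) and Plcb3 (r = 0.996), a phospholipase C. Aqp1 was closest to AI464131 (r = 0.996), 0610005C13Rik and Nit2 (both r = 0.995), an omega-amidase, and Aqp4 to Ddost (r = 0.996), a subunit of the enzyme that adds N-glycans, Pxylp1 (r = 0.994) and Slc25a35 (r = 0.993), a mitochondrial carrier. The genes nearest Aqp4 shared its order of groups but not the depth of its fall. In LI monolayers Ddost stood at 40.5%, Pxylp1 at 14.3% and Slc25a35 at 8.35% of their LI tissue means, against 0.304% for Aqp4.

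The rest of the family was scarcely present. Of the other 6 aquaporin genes (Mip, Aqp2, Aqp5, Aqp6, Aqp9 and Aqp12), only Aqp9 passed the filter, and Aqp2 had 0 counts in all 12 libraries, which allows up to 0.0394 to 0.0508 CPM per library for counting error only. Aqp9, a glycerol and urea channel of liver, held 28, 50 and 48 raw counts in SI monolayers against 8, 2 and 8 in SI tissue, 4, 8 and 2 in LI tissue and 0, 2 and 2 in LI monolayers. It passed the filter only through its SI monolayer counts, so that this group had to differ from others. Of the tested aquaporins it alone was called higher in culture (log2 fold change 2.60, SE 0.64, adjusted p = 0.00235 by edgeR), and this in SI, where its mean was 0.585 CPM. Aqp9 also differed between SI and LI monolayers (log2 fold change 4.71, SE 0.79, adjusted p = 9.79e-05 by edgeR). The remaining genes stayed at or below 20 raw counts in every library, with the highest value for Aqp12 in LI tissue replicate 3.

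Transporters that set up the salt gradients water follows, together with hormones, receptors and enzymes that control them, were read as a list of 25 genes beside the aquaporins. Beside the counts for this list and the next stand the shares of all tested genes, which were 16.4% lower and 9.71% higher in SI monolayers, 23.5% and 14.5% in LI monolayers, 11.1% and 11.6% in SI tissue against LI tissue, and 8.88% and 12.4% in SI monolayers against LI monolayers. In LI monolayers 14 of 25 were lower and none higher (median log2 fold change -1.30, against -0.05 for all genes), and in SI monolayers 10 were lower and 3 higher (median -0.89). The lowest in both regions was Hsd11b2, which protects the mineralocorticoid receptor from glucocorticoids, with log2 fold changes of -3.47 (SE 0.19) in SI and -7.02 (SE 0.19) in LI. The highest in SI was Ano1, a calcium-activated chloride channel, which rose from 588.6 to 14190 normalized counts (log2 fold change 4.62, SE 0.09, adjusted p = 1.61e-15 by edgeR). Between tissues 11 of 25 were lower and 3 higher in SI, from Scnn1b, a subunit of the epithelial sodium channel, with 0.784 against 447.0 normalized counts, to Slc26a6, an anion exchanger, with 32748 against 271.5 normalized counts. In monolayers 8 of 25 were lower and 7 higher in SI, and Guca2b, the hormone uroguanylin, was the highest (log2 fold change 5.09, SE 0.23, adjusted p = 7.36e-08 by edgeR).

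Genes that handle glycerol and triglyceride were the list nearest to Aqp3 and Aqp7 in role. Of 12 genes, 7 were lower and none higher in SI monolayers (median log2 fold change -1.12), and 8 were higher and 1 lower in SI tissue than in LI tissue (median 1.97). The lowest in SI monolayers was Lipe, hormone-sensitive lipase, at 602.7 against 3656 normalized counts (log2 fold change -2.57, SE 0.14, adjusted p = 6.94e-10 by edgeR). Mogat2, which rebuilds triglyceride in enterocytes, was 26509 in SI tissue and 209.6 in LI tissue (log2 fold change 7.03, SE 0.42, adjusted p = 8.95e-07 by edgeR). The LI comparison was mixed, with 3 of 12 higher, led by the mitochondrial glycerol-3-phosphate dehydrogenase Gpd2 (log2 fold change 2.53, SE 0.11), and 2 lower, led by monoacylglycerol lipase Mgll (-5.60, SE 0.38). Aqp7 fell further in SI monolayers than any called gene of the list, at -6.35 on the log2 scale.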

How the data were processed

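RNA was sequenced on the Illumina HiSeq (paired-end), and per the labels and the study's methods the authors aligned reads to GRCm38 with STAR 2.7.9a and counted them on GENCODE genes with featureCounts 2.0.2. The authors deposited whole-number counts per gene and a normalized signal, in which DESeq2 (3.13) size factors of 0.850 to 1.12 had been divided out of those counts, with no log taken. Whether both mates were counted, and whether by strand, is not given in the sources used here. Among counts from 1 to 20, 73.4% to 77.4% were even, so intervals and floors, which cover counting error only, may be too narrow.

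From the deposited counts, genes were kept by filterByExpr, scaled by TMM and tested with edgeR 4.0.16 (robust quasi-likelihood) in 1 model of the 4 group means, with Benjamini-Hochberg adjustment over all tested genes in each of 5 comparisons, among them the interaction of region and preparation. Fold changes beside a log2 fold change are from this fit, whereas group means are means of the authors' normalized counts. P-values rest on 1 estimate of spread per gene over all libraries, which mixes the spread between mice with that between pools of wells. Tissue replicates lay further apart than monolayer replicates (chi-square of 31.4 to 186.3 against 5.16 to 10.8 per degree of freedom). The p-values also take SI and LI monolayers, which share mice, as independent. They take SI and LI tissue as independent too, and whether these libraries share mice is not stated. CPM are TMM-scaled. Gene names, positions and exon lengths came from GENCODE M21 (GRCm38), which named 55141 of 55487 genes. Sequences came from RefSeq (GRCm38.p6) for the aquaporins read there. The models were tested on simulated data.

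The genes named are all aquaporins, the 3 genes with the highest Pearson r to each member, the called gene at each end of each pathway list (mean of at least 1 CPM) and the most abundant gene of marker lists. Other genes, the sums without Erbb3 or Cidec, the ranks among genes of at least 100 CPM and the percentages of a higher group were chosen after values were seen. The members and lists were chosen with earlier results of these data known. Alternatives were upper quartile and median-ratio scaling, DESeq2 1.42.0, limma 3.58.1 on log2(normalized count + 1), no filter, no minimum fold, a fit of only the 2 groups concerned, a block for the replicate number, and leaving out any 1 library. Of the large intestinal region list, 1 gene is not reported here; the sum over the other 5, its homeobox genes, was formed after the values were known.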

Additional observations from a re-analysis of the deposited data

Results flagged for a closer look

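For 5 of the 6 aquaporins the change between monolayers and tissue differed between the small and the large intestine, by edgeR's test of the interaction itself, where 20% of all tested genes were called (11.4% with a positive and 8.51% with a negative interaction). The values below are log2 differences, the SI change minus the LI change.

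Aqp4 had the largest positive value, 6.33 (SE 0.2, adjusted p = 2.87e-10 by edgeR), from a fall of 3.96-fold in SI and of 319.3-fold in LI. Aqp8 had 1.72 (SE 0.48, adjusted p = 0.0167 by edgeR), from overlapping groups in SI and a 2.44-fold fall in LI. Aqp1 had 1.17 (SE 0.29, adjusted p = 0.00924 by edgeR), with falls in both regions of which the LI one was larger.

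Both aquaglyceroporins had negative values. Aqp3 had -3.55 (SE 0.86, adjusted p = 0.006 by edgeR), from an 8.13-fold fall in SI and no call in LI. Aqp7 had -6.34 (SE 1.6, adjusted p = 0.00592 by edgeR), and its LI side rests on 7 raw counts in tissue and 6 in monolayers. This call was lost without LI monolayer replicate 3 (-5.34, adjusted p = 0.121 by edgeR), and the value ran from -10.5 to -5.34 when any 1 library was left out.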

How the results depend on the processing

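The number of aquaporins called stayed within 1.5 times its value under each alternative run. Without 1 library it ranged from 4 to 5 in SI, from 4 to 6 in LI, and from 4 to 5 for the interaction, and was 6 throughout in both region comparisons. The 6 in LI came without LI tissue replicate 1, where Aqp3 (1.92) and Aqp7 (4.15) were also called, both higher in monolayers. Correlations of deviations from group means ran from -0.052 to 0.056 between same-numbered libraries and from -0.108 to 0.098 between differently numbered ones. They gave no sign of pairing by replicate number, but do not show that the libraries are unpaired. With the replicate number as a block 4, 4, 6, 6 and 5 aquaporins were called, as without it. Aqp7 in LI, at most 7 counts, changed sign, to 0.37 with limma on log2 values, and ranged from -0.97 to 4.15 without 1 library (4.15 without LI tissue replicate 1, 0.52 without LI monolayer replicate 1). Without LI tissue replicate 1, where LI tissue is all at 0, the fitted SI tissue to LI tissue value of Aqp7 was 13.23 in place of 9.07 and its interaction -10.5, which depend on the prior count. The Aqp7 interaction lost its call without LI monolayer replicate 3 (-5.34, adjusted p = 0.121 by edgeR). Aqp3 in LI was called only without LI tissue replicate 1 (1.92). Aqp11 in SI was called without SI tissue replicate 3 (-1.03) or with no minimum fold (-0.94), where its interaction (0.70) was called too. TMM scaling moved the SI monolayer means of Aqp1 to 2084 and of Aqp11 to 2784, by more than 1 SD. Without division by length 2, 4, 0 and 2 aquaporins changed place in the tissue and monolayers of SI and then of LI, and Aqp11 took the lead from Aqp1 in SI monolayers. Upper quartile scaling shifted the LI median of all genes to -0.17, and no call of an aquaporin changed. Aqp7 had too few counts for the fit of the 2 LI groups alone.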

Other observations

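Genes of the response to osmotic stress summed to more in monolayers than in tissue in both regions, with no overlap. The 10 genes summed to between 484.6 and 506.7 CPM in SI tissue and to between 758.1 and 764.5 CPM in SI monolayers, and to between 469.4 and 504.3 CPM in LI tissue and to between 1123.2 and 1172.8 CPM in LI monolayers. In LI 6 of 10 were called higher and 1 lower (median log2 fold change 1.21), where 14.5% of all tested genes were higher and 23.5% lower. In SI none passed both thresholds (median 0.51, against -0.05 for all genes), where 9.71% of all tested genes were higher and 16.4% lower. The difference between regions was tested gene by gene and not for the list. Nfat5, the transcription factor that answers hypertonicity, rose from 1701 to 7994 normalized counts in LI (log2 fold change 2.28, SE 0.08, adjusted p = 5.98e-13 by edgeR), and its interaction was called at -1.80 (SE 0.11). Slc6a6, the most abundant gene of the list, went from a mean of 102.6 CPM in LI tissue to 408.3 CPM in LI monolayers. Means in LI went the other way for Akr1b3 (7982 to 4571 normalized counts), Stk39 (3609 to 3176), Slc5a3 (1097 to 940.2) and Slc6a12 (37.0 to 1.32). Slc5a3, a myo-inositol transporter, was lower in SI than in LI in both preparations, with log2 fold changes of -3.02 (SE 0.19) in tissue and -2.30 (SE 0.19) in monolayers.

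Genes that make or remove hydrogen peroxide, which Aqp8 and some other aquaporins can carry, were read as a list of 11 tested genes. In SI monolayers 4 were lower and none higher, where 16.4% of all tested genes were lower and 9.71% higher. In LI monolayers 6 were lower and none higher, where 23.5% of all tested genes were lower and 14.5% higher, so that falls outnumbered rises among all genes too. Nox1, the NADPH oxidase of the colon epithelium, went from 10338 normalized counts in LI tissue to 10.7 in LI monolayers (log2 fold change -9.82, SE 0.3, adjusted p = 2.7e-10 by edgeR) and, like Aqp4, was lower in SI than in LI in tissue (-5.19, SE 0.21) but higher in monolayers (2.48, SE 0.44). The monolayer value rests on 197 raw counts over the SI libraries and 32 over the LI libraries. Duoxa2, the maturation factor of Duox2, was the lowest of the list in SI monolayers (-3.12, SE 0.20), from 21868 to 2450 normalized counts.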
